A study of Homo sapiens with 6 samples.

Results

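The genes described here encode RNA polymerase I, its initiation factors and the nucleolar proteins that turn its transcript into ribosomal subunits. They were the 54 rows of the deposited count table whose gene symbol is on a fixed list of Pol I machinery and nucleolar assembly factors, out of 65746 genes. All 54 passed the filter on low counts, so each of them was tested. RNA came from SU-DHL-8, an established human diffuse large B-cell lymphoma line labelled wild type, in 2 groups of 3 libraries. The treated cells received 15 µM beta-sitosterol, a plant sterol, for 24 h, and the control cells received DMSO, the solvent, for 24 h at an equal concentration. All results therefore describe 1 line at 1 dose and 1 time. The labels speak of replicate experiments without saying which cultures they came from, so p-values measure the spread between these libraries, which may be partly technical.

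RNA polymerase I transcribes the ribosomal DNA repeats in the nucleolus into a single long precursor. UBTF, the TAF1 subunits of the selectivity factor SL1 and RRN3 place the polymerase on that promoter. Small nucleolar RNPs modify the precursor. The small subunit processome folds and cuts it, and further factors carry the 40S and 60S subunits to the cytoplasm. Many of these genes are known targets of MYC, which binds the E-box CACGTG, and lymphoma cells are known for a high demand for new ribosomes.

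The E-box was therefore looked for around the start sites. RefSeq windows on GRCh38.p14, running from 250 bases before to 50 bases after each gene's start, matched 47 of the 54 genes by symbol. The start used was the outer 5′ end of the RefSeq gene in 42 of the 47, the genes with printed sequences included. For UBTF, NPM1, UTP15, BYSL and PES1 it lay inside the gene. CACGTG, which reads the same on both strands, was present in 18 of these 47 windows (38.3%), against 7.43% of all 27305 windows and 10.4% of the 9086 windows of tested genes. The related sequence CACGCG, on either strand, was present in 36.2% of the 47 and 18.1% of the windows of tested genes. Matches of the 2 motifs can share bases, and a match describes sequence only. CACGTG was found in 1 of 7 windows of genes that fell, in 4 of 6 of genes that rose and in 13 of 34 of the rest. Over all tested genes the order was the opposite, with 11.2% of windows of genes called lower and 7.94% of those called higher. These small member counts were not tested. The 5 sites in genes that changed after beta-sitosterol are shown 5′ to 3′ on the gene's strand with 10 bases on each side, so that the shared core (capitals) can be compared with its flanks.
FBL: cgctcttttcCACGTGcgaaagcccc
PNO1: tgcagctgcgCACGTGtttcagccgg
EBNA1BP2: tattgttggcCACGTGggatcgaaga
MYBBP1A: ggccggagcaCACGTGtttcgtgttt
NME1: tgctgcgaacCACGTGggtcccgggc
Their positions are chr19:39846358-39846383 (minus strand) for FBL, chr2:68157887-68157912 (plus) for PNO1, chr1:43172792-43172817 (minus) for EBNA1BP2, chr17:4555342-4555367 (minus) for MYBBP1A and chr17:51153583-51153608 (plus) for NME1. The FBL and PNO1 sites begin 6 and 9 bases downstream of the annotated start, and the EBNA1BP2 site lies 237 bases upstream. Of the 47 windows, 2 held 2 or more E-boxes, those of UTP18 and NOP10, both uncalled genes. UTP18 has 1 site 89 bases upstream and another 4 bases downstream of its start. NOP10, which encodes the smallest protein of the box H/ACA particles, holds a pair of E-boxes 170 and 11 bases upstream of its start. Its 175 bases before the start (chr15:34343137-34343311, minus strand) are shown because both sites fall in them.
NOP10: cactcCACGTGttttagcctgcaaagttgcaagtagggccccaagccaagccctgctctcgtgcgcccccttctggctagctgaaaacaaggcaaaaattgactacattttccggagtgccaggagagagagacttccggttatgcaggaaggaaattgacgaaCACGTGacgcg

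Libraries held 26453101 to 35565163 counts. DMSO libraries varied more than treated ones: across the 54 genes the median replicate SD of log2 CPM was 0.26 with DMSO and 0.05 with beta-sitosterol, near the 0.27 and 0.09 of all genes tested. DMSO replicate 2 stood apart, with a correlation of log2 CPM as low as 0.972 with another DMSO library, against at least 0.994 among treated libraries. B-cell markers were present throughout, all 8 lying above 1 CPM in every library and summing to 1889 to 2541 CPM in DMSO and 2266 to 2429 CPM in treated cells. Single markers moved in opposite directions within that sum: mean CPM of PAX5 went from 659.7 to 208 and of EBF1 from 80.7 to 19.3, and of CD79A from 371 to 767 and of MS4A1 from 3.92 to 18.3, all without overlap. Their part in the results was not tested. Of 14 markers of T cells, myeloid cells, red cells, stroma and epithelium, 12 stayed under 1 CPM in every library and 3, CD3E, CD3G and HBB, were at 0 everywhere. Their sum ran from 4.99 to 7.24 CPM in DMSO and from 7.196 to 10.4 CPM in treated cells, mostly LYZ, and its part in the results was not tested.

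The genes did not move as a block after beta-sitosterol. A minority changed, in both directions and by less than 2-fold: UBTF, NCL, POLR1A and RRS1 fell most, and FBL, NME1 and EBNA1BP2 rose most. In edgeR's quasi-likelihood test with Benjamini-Hochberg adjustment over all 11525 genes and a threshold of 0.05, 7 of the 54 were higher and 8 lower, 15 in all (27.8%). Over all genes tested 40.8% were called, 19% higher and 21.8% lower, so the share here was below that of the table as a whole. The median log2 fold change was -0.07 for the 54 genes and -0.04 for all genes. None of the 54 fitted fold changes reached 2-fold, a size that 1911 of the 11525 genes reached. The treated and DMSO values did not overlap for 28 of the 54 (51.9%), against 56.1% of all genes, and all 15 called genes were among these 28. Treated values lay wholly above in 13 (27% of all genes) and wholly below in 15 (29.1% of all genes). The counts depended on single libraries, as did those over all genes. Without DMSO replicate 2, 15 were higher and 15 lower (26.4% and 30.3% of all genes), and the 15 genes called with every library were all still called. Without DMSO replicate 1 the counts were 7 and 7 (15.2% and 17.4% of all genes), and without DMSO replicate 3 they were 10 and 10 (21.9% and 22%). Without treated replicate 1, 2 or 3, 4, 4 and 3 were higher (12.8%, 12.7% and 12.8% of all genes) and 5 lower each time (13.7%, 13.5% and 14.1%). On log2(TPM + 1), where the median of all genes lay at -0.19, 0 were higher and 5 lower (6.19% and 19.3% of all genes in limma). The TPM listed in a library sum to only 39.5% of the full scale in DMSO replicate 2 and to 57.0% to 69.2% in the others.

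**Figure D1:**
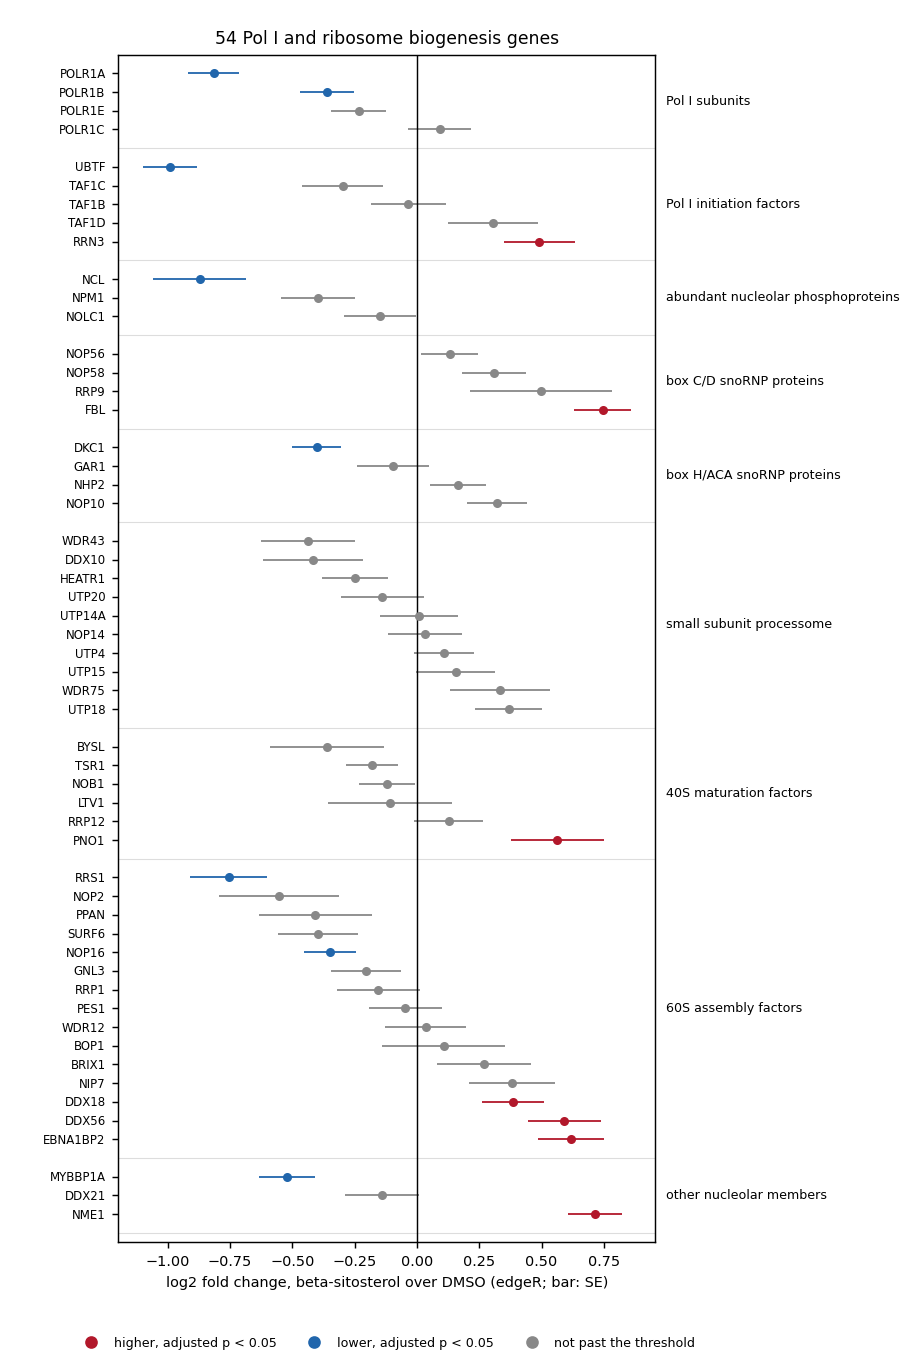
Fitted log2 fold change (beta-sitosterol over DMSO, edgeR; bars are SE) of the 54 genes, grouped by role and sorted within each role. Called genes lie on both sides of 0, from -0.99 for UBTF to 0.74 for FBL, and no member of the small subunit processome passed the threshold.

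Among the polymerase subunits, the large catalytic subunit genes fell in the main fit and the smaller ones did not pass in it. POLR1A (ENSG00000068654, chromosome 2, 86020216 to 86105886) encodes the largest subunit and stood at 255, 255 and 267 CPM in DMSO replicates 1 to 3 and at 148, 142 and 152 CPM in the treated ones. CPM here are counts scaled to library size with TMM factors. The treated values lay far below the DMSO values, with little spread in either group, and the log2 fold change was -0.81 ± 0.10 (SE; edgeR adjusted p = 6.46e-04). POLR1B (chromosome 2, 112542036 to 112579818), whose product forms the active site together with that of POLR1A, went from 114, 102 and 108 to 84.5, 85.3 and 82.7 CPM. This fall of 0.36 on the log2 scale was narrow (edgeR adjusted p = 0.028). It was no longer called when DMSO replicate 1 or any treated replicate was left out (up to 0.13). POLR1E, a subunit of the polymerase's dissociable heterodimer, stood at 60.7, 65.7 and 62.7 CPM in DMSO and 50.6, 53.0 and 57.1 CPM in treated cells. The groups did not overlap, but POLR1E was not past the threshold (edgeR adjusted p = 0.13). With the trend on gene length removed, alone or with the GC trend, POLR1E was called lower and POLR1B was not called. In these fits 40.5% and 49.5% of all genes were called. With both trends removed and DMSO replicate 2 left out, all 4 subunit genes were called, 1 higher and 3 lower (66.2% of all genes). POLR1C, which Pol I shares with Pol III, had overlapping groups (83.1 ± 9.84 and 88.5 ± 3.74 CPM, SD, n = 3).

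Initiation factors split. UBTF (ENSG00000108312, chromosome 17, 44205040 to 44221304), the architectural factor that coats active ribosomal DNA, had the largest fall of all 54 genes. It stood at 428, 502 and 472 CPM in DMSO and at 234, 233 and 238 CPM after beta-sitosterol. The groups were far apart and the treated libraries nearly identical (log2 fold change -0.99 ± 0.11; edgeR adjusted p = 3.84e-04). RRN3 (chromosome 16, 15060022 to 15094335), which makes the polymerase competent to start, rose from 81.8, 61.5 and 61.8 to 99.0, 98.0 and 91.2 CPM. All treated values exceeded DMSO replicate 1, the highest of its group (log2 fold change 0.49 ± 0.14; edgeR adjusted p = 0.025), but the call was lost without any of the treated replicates (up to 0.099). RRN3P1 and RRN3P3 are annotated copies of this gene, so its count is uncertain where reads map to more than 1 copy. The SL1 subunit genes TAF1B, TAF1C and TAF1D were not called, at -0.03, -0.30 and 0.31. Treated values of TAF1D lay wholly above DMSO. In GENCODE v29, 9 of the 54 genes, TAF1D and NCL among them, host small nucleolar RNA genes.

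Nucleolin and nucleophosmin are the most abundant phosphoproteins of the nucleolus and chaperones of pre-ribosomal particles. Their genes had the highest levels per length of the 54 by mean TPM over all 6 libraries. In the treated libraries alone, FBL at 417, 426 and 421 TPM lay above NCL at 333, 348 and 347 TPM. NCL (ENSG00000115053, chromosome 2, 231453531 to 231464484) stood at 1876, 2920.2 and 1824 CPM in DMSO and 1154, 1225 and 1238 CPM in treated libraries. All treated values lay below the lowest DMSO value, and DMSO replicate 2 was far above its group. The log2 fold change was -0.87 ± 0.19 (edgeR adjusted p = 0.0067), and -0.62 without DMSO replicate 2. NPM1 (chromosome 5, 171387116 to 171410900) stood at 2018, 2532 and 1769 CPM in DMSO and at 1539, 1633 and 1625 CPM after treatment. Again the groups did not overlap and DMSO replicate 2 was the highest, but the difference of -0.40 ± 0.15 missed the threshold (edgeR adjusted p = 0.060). It was called when DMSO replicate 2 or 3 was left out (-0.25 and -0.47). GENCODE v29 lists 45 pseudogenes named after NPM1, so its count is uncertain. NOLC1, a chaperone of small nucleolar RNPs, had overlapping groups (676 ± 128 and 610.02 ± 20.1 CPM, SD, n = 3).

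The summed level was lower in treated libraries. The 54 genes added up to 13251, 14929.6 and 13247 CPM in DMSO and 11925, 12439.6 and 12444 CPM in treated libraries. NCL and NPM1 together held 3894, 5452 and 3593 CPM in DMSO and 2694, 2858 and 2864 CPM after treatment, without overlap. The remaining 52 genes summed to 9358, 9477 and 9654 CPM against 9231, 9582 and 9580.04 CPM, and these sums overlapped. CPM of bulk RNA are shares of a library, so less of a transcript per cell and fewer cells holding it cannot be told apart, nor can a change in total RNA per cell be seen.

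The box C/D proteins, which form particles with RNAs that mostly guide 2′-O-methylation of ribosomal RNA, all had positive log2 fold changes, and FBL passed. FBL (ENSG00000105202, chromosome 19, 39834458 to 39846379), the methyltransferase itself, rose from 531, 574 and 641 to 950.5, 988 and 988 CPM. Each treated library was well above each DMSO library, and the log2 fold change of 0.74 ± 0.11 was the largest rise of the 54 (edgeR adjusted p = 0.0015). NOP56, a core partner of fibrillarin, stood at 988, 887 and 1036 CPM in DMSO and 989.9, 1085 and 1114 CPM in treated cells, with overlap (0.13 ± 0.11). NOP58, the other core partner, lay without overlap at 209, 219.6 and 169 CPM against 239, 256 and 244 CPM, and missed the threshold (edgeR adjusted p = 0.086). RRP9, which binds the U3 RNA, had a wide DMSO spread (107, 53.4 and 134 CPM against 142, 132 and 142 CPM) and was not called. FBL, NOP56 and NOP58 work in the same particle, so their levels per length were also compared within each library, where the TPM denominator cancels. The TPM of FBL was 1.42, 1.71 and 1.64 times that of NOP56 in DMSO and 2.54, 2.41 and 2.35 times in treated libraries. This ratio did not overlap between groups. Its p of 0.1 in a two-sided exact permutation test was the smallest that 3 against 3 libraries can give (0.13 adjusted over the 13 ratios computed). The 13 ratios were chosen after the values of their genes were seen, so they are no separate support for the calls.

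The box H/ACA proteins, which bind telomerase RNA and form particles with RNAs that guide pseudouridylation, went different ways. DKC1 (chromosome X, 154762864 to 154777689), the pseudouridine synthase, fell from 348, 348 and 335 to 254, 263 and 262 CPM. The spread was small in both groups (log2 fold change -0.40 ± 0.10; edgeR adjusted p = 0.012), yet the call was lost without any of the treated replicates (up to 0.077). NOP10 lay at 52.4, 58.9 and 57.4 CPM in DMSO and 63.9, 75.4 and 71.3 CPM after treatment, without overlap (edgeR adjusted p = 0.061). NHP2 also had higher treated values without overlap (120.4 ± 8.51 and 135 ± 5.03 CPM; edgeR adjusted p = 0.27), and GAR1 overlapped (82.7 ± 14.9 and 77.4 ± 0.70 CPM). NOP10 is short, 0.081 times the median gene length by counts over TPM, and its difference turned to -0.11 when the trend of each library on gene length was removed. The TPM of DKC1 relative to NOP10 was 0.49, 0.43 and 0.43 in DMSO and 0.29, 0.26 and 0.27 in treated libraries. As for FBL over NOP56, the groups did not overlap and the exact permutation p was 0.1.

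**Figure D2:**
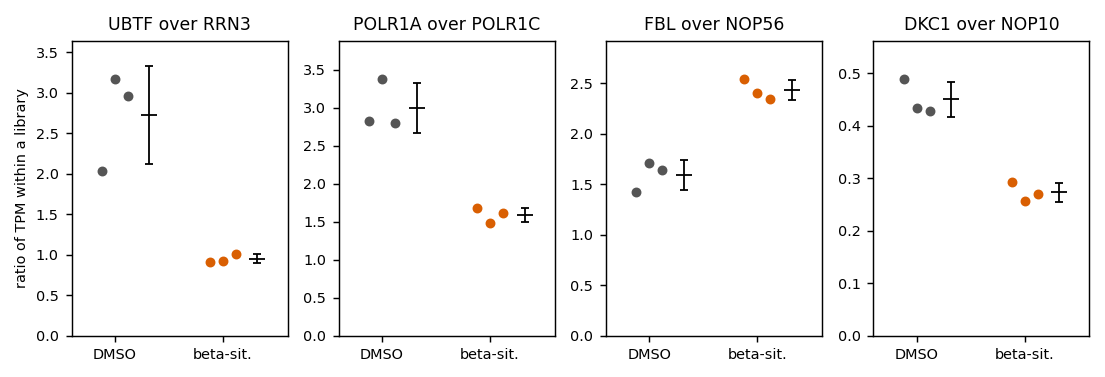
Ratio of TPM between genes of the same machinery in each library (points, replicates 1 to 3 from left to right), with the mean and SD of each group. The treated values lie below the DMSO values for UBTF over RRN3, POLR1A over POLR1C and DKC1 over NOP10, and above them for FBL over NOP56.

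The other ratios moved with the single genes. UBTF over RRN3 was 2.03, 3.17 and 2.96 in DMSO and 0.92, 0.92 and 1.01 in treated libraries. UBTF thus exceeded RRN3 per length in every DMSO library and stood near it in the treated ones. POLR1A over POLR1C went from 2.82, 3.38 and 2.80 to 1.67, 1.49 and 1.61. BOP1, PES1 and WDR12, which form the PeBoW complex of 60S assembly and were not called, had ratios whose groups overlapped. The exact permutation p was 0.4 for BOP1 over PES1, 0.8 for BOP1 over WDR12 and 0.7 for PES1 over WDR12. With 3 libraries per group these values do not show that the ratios were the same.

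The small subunit processome, which assembles on the nascent transcript, had no called gene among 10 (UTP4, UTP14A, UTP15, UTP18, UTP20, WDR43, WDR75, HEATR1, NOP14 and DDX10). Log2 fold changes ran from -0.44 to 0.37 with a median of 0.02, and adjusted p was 0.058 or more in edgeR, while 40.8% of all genes were called. This count of 0 depended on the settings. Without DMSO replicate 2, 3 of the 10 were called, UTP4, UTP18 and WDR75 (56.6% of all genes). Without DMSO replicate 3, 2 were called, UTP18 and WDR43 (43.9%). On both TPM scales WDR43 and DDX10 were lower, as were 19.3% of all genes on log2(TPM + 1) and 19.5% on log2(TPM + 0.1). With the length and GC trends removed 4 were called, UTP4, WDR43, HEATR1 and DDX10 (49.5%), and with both changes 8 were called (66.2%). UTP18 came closest, at 78.4, 60.5 and 79.2 CPM in DMSO and 95.4, 93.3 and 92.7 CPM in treated libraries. Its groups did not overlap (0.37 ± 0.13), and it passed in DESeq2, with RLE factors and without DMSO replicate 2 or 3. WDR43, which ties the processome to transcription, had the lowest log2 fold change of the role (-0.44). It stood at 146, 219 and 131 CPM in DMSO and at 119, 121 and 127 CPM in treated libraries. DMSO replicate 2 was far above the others (edgeR adjusted p = 0.097).

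Of 6 factors that finish the 40S subunit, PNO1 rose and 5 were not called (16.7% called, against 40.8% of all genes). PNO1 (chromosome 2, 68157888 to 68176238), which with the nuclease NOB1 prepares the last cut of the 18S end, went from 37.0, 22.1 and 29.9 to 44.0, 46.1 and 41.3 CPM. The groups did not overlap but were close (0.56 ± 0.19, edgeR adjusted p = 0.041), and the call was lost without any of the treated replicates (up to 0.13). PNO1 is short, 0.28 times the median gene length by counts over TPM. Its call was also lost in every fit with the trend on gene length removed. NOB1 itself, LTV1, TSR1, RRP12 and BYSL had log2 fold changes from -0.36 to 0.13. BYSL, an abundant member, stood at 549, 323 and 661 CPM in DMSO and 387, 397 and 411 CPM in treated cells, with DMSO replicate 2 below and the other DMSO libraries above the treated range.

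Factors of the 60S subunit fell in 2 of 15 and rose in 3 (33.3% called, against 40.8% of all genes). These counts depended on single libraries. Without DMSO replicate 2, 4 were higher and 6 lower (26.4% and 30.3% of all genes). Without treated replicate 1, 2 or 3, 2, 2 and 1 were higher (12.8%, 12.7% and 12.8% of all genes). In these fits 1 was lower each time (13.7%, 13.5% and 14.1%). RRS1 (chromosome 8, 66429014 to 66430733), which brings the 5S RNP into the precursor, went from 82.1, 71.7 and 106 to 52.0, 52.3 and 49.3 CPM. No treated value reached the DMSO range (-0.76 ± 0.16; edgeR adjusted p = 0.0056). NOP16 (chromosome 5, 176383946 to 176388598) went from 68.1, 70.8 and 70.2 to 54.1, 54.9 and 55.2 CPM, a small difference with small spread (-0.35 ± 0.10; edgeR adjusted p = 0.028). Its call was lost without any of the treated replicates (up to 0.12).

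In the other direction, EBNA1BP2 (chromosome 1, 43164174 to 43172570), an early 60S factor, went from 101, 132 and 106 to 173, 177 and 172 CPM. The treated libraries lay clearly above the DMSO range (0.62 ± 0.13; edgeR adjusted p = 0.0063). The DEAD-box helicase gene DDX56 (chromosome 7, 44565804 to 44573908) rose from 182, 141 and 202 to 255, 257 and 278 CPM (0.59 ± 0.15; edgeR adjusted p = 0.013), a call lost without treated replicate 3 (0.062). DDX18 (chromosome 2, 117814691 to 117832377), another helicase gene, rose from 139, 119 and 109 to 158, 166 and 155 CPM. The gap between the groups was narrow (0.39 ± 0.12, edgeR adjusted p = 0.036). The call was lost without any of the treated replicates (up to 0.15), and also with the length and GC trends removed. The 5 annotated DDX18 pseudogenes make the count uncertain. The other 10, BOP1, PES1, WDR12, NOP2, GNL3, NIP7, PPAN, RRP1, SURF6 and BRIX1, ran from -0.55 to 0.38. NOP2, a methyltransferase of 28S RNA, was counted at only 2.61 ± 0.22 CPM in DMSO and 1.78 ± 0.44 CPM in treated cells. GENCODE v29 places 54.4% of its exon bases in another gene of the same strand. For PPAN this share is 59.8%, so the counts of both are uncertain.

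Among the remaining genes, MYBBP1A (chromosome 17, 4538904 to 4555384), a nucleolar protein that binds the polymerase, went from 319.8, 316 and 374 to 239, 228 and 237 CPM. The groups were well separated (-0.52 ± 0.11; edgeR adjusted p = 0.0067). NME1 (chromosome 17, 51153559 to 51162168), a nucleoside diphosphate kinase and MYC target that is no assembly factor, rose from 48.8, 47.4 and 45.6 to 74.4, 80.5 and 78.0 CPM with little spread (0.71 ± 0.11; edgeR adjusted p = 0.0014). DDX21, a helicase that couples Pol I to small nucleolar RNA, had overlapping groups (543 ± 107 and 493 ± 14.3 CPM).

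**Figure D3:**
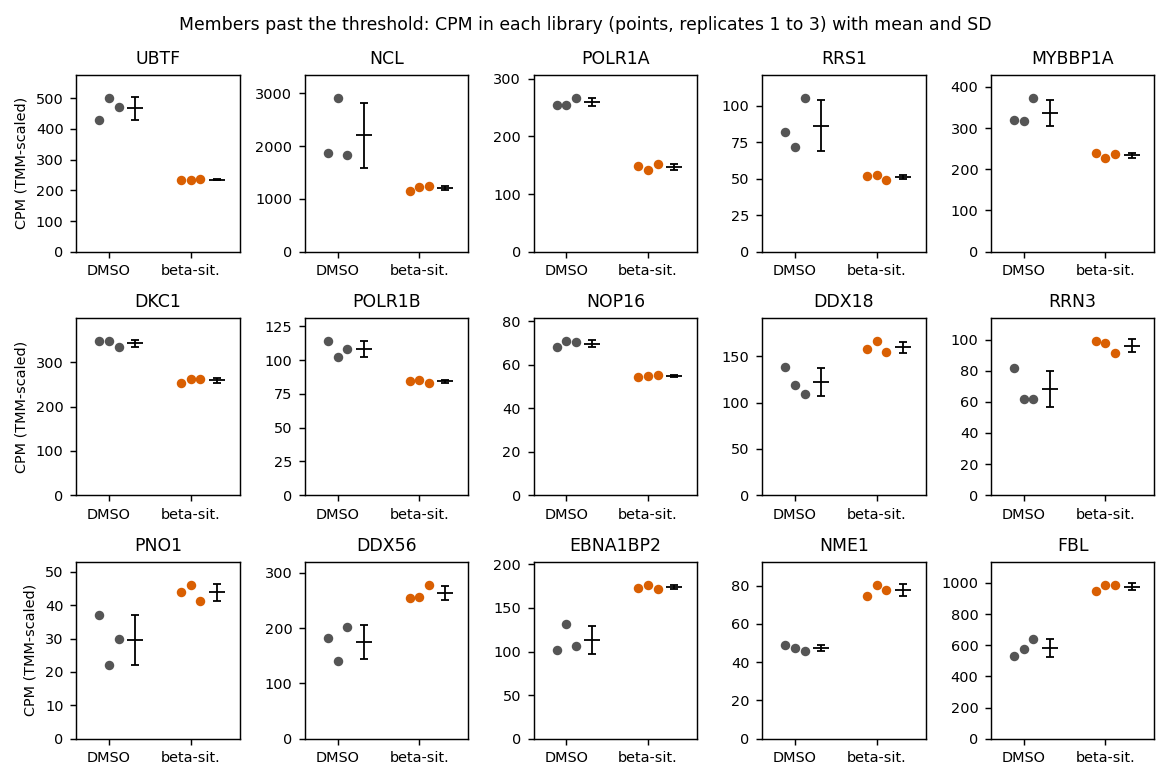
CPM of the 15 called genes in each library, ordered from the largest fall (UBTF) to the largest rise (FBL), with the mean and SD (n = 3) beside the points and axes starting at 0. In all 15 the groups do not overlap, and treated libraries lie closer together than DMSO libraries for most of them.

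Of the 15 calls, 8 held with every library left out in turn: UBTF, POLR1A, NCL, RRS1, MYBBP1A, FBL, NME1 and EBNA1BP2. The largest edgeR adjusted p in these fits was 0.0497 for MYBBP1A, just under the threshold. It was 0.037 for EBNA1BP2, 0.036 for NCL, 0.034 for RRS1 and 0.015 or less for UBTF, POLR1A, FBL and NME1. UBTF, POLR1A and NCL were called in all 18 alternatives, the TPM scales included, but their sizes moved. The UBTF log2 fold change ran from -1.24 on log2(TPM + 0.1) to -0.68 with the length and GC trends removed and -0.59 when DMSO replicate 2 was left out as well. In the same settings POLR1A stood at -1.07, -0.55 and -0.56, and NCL at -1.09, -0.78 and -0.56. No called gene changed direction in any of them. Counts of 5 called genes are less certain because other GENCODE v29 genes share over 10% of their exon bases: 20.5% for EBNA1BP2, 20% for NOP16, 18.6% for NME1, 11.4% for RRS1 and 10.4% for PNO1. Pseudogenes are also annotated for NCL (NCLP1 and NCLP2) and NME1 (NME1P1), so their counts are uncertain, as for RRN3 and DDX18.

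Much of the DMSO spread lay in replicate 2. That library was the highest of the DMSO libraries for 25 of the 54 genes and the lowest for 20. It was thus the highest or lowest for 83.3% of the 54 genes, near the 81.9% of all genes tested. Relative to the mean of the other DMSO libraries, RRP9, BOP1, BYSL and PPAN were lowest in it, at -1.17, -0.93, -0.90 and -0.78 log2 units, and LTV1, DDX10 and WDR43 highest, at 0.88, 0.72 and 0.66. Across the 54 genes this deviation had a Spearman rho of -0.60 (Pearson r -0.65) with the GC content of the gene's longest coding transcript. Over 11471 genes the rho was -0.51 (r -0.49), and genes share their libraries and are not replicates. RRP9, BOP1, BYSL and PPAN have 60.9%, 65.2%, 57.1% and 63.2% GC, while LTV1, DDX10 and WDR43 have 41.7%, 40.2% and 40.3%. The ranges overlapped, however. In DMSO replicate 2, 8 genes lay at least 0.5 log2 units below the other DMSO libraries, with 41.6% to 65.2% GC. PNO1 and NIP7, at -0.59 and -0.56, were among them with 41.6% and 43.9% GC. The 7 genes at least 0.5 above had 39.3% to 47.2% GC. The part of GC in the DMSO spread was not tested further. Log2 fold changes had a weak relation with gene length, with a rho of -0.22 in the 54 genes and -0.23 in all.

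**Figure D4:**
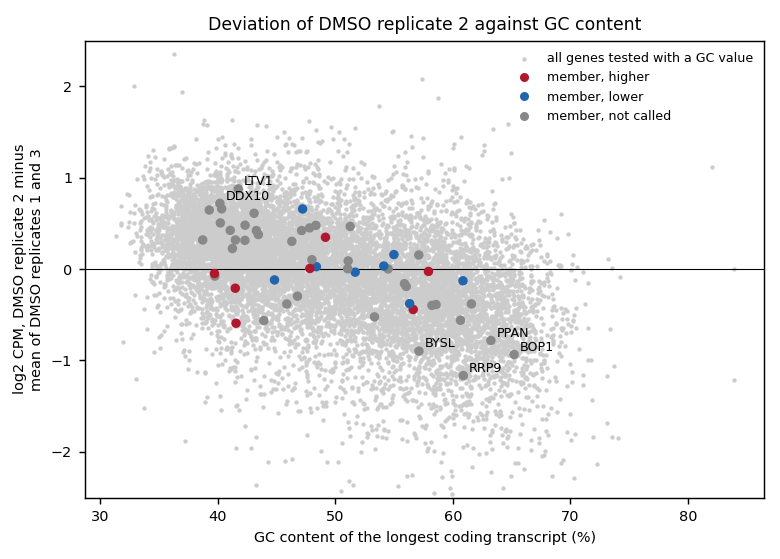
Log2 CPM of DMSO replicate 2 minus the mean of DMSO replicates 1 and 3, against the GC content of each gene's longest coding transcript, for the 54 genes (large points) and all genes with a GC value (small points, 19 outside the drawn range). GC-rich members such as RRP9, BOP1, BYSL and PPAN lie below 0, and LTV1 and DDX10 lie above it. Some members of lower GC content, PNO1 and NIP7 among them, also lie below 0.

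Other pathway genes also went both ways. Of 108 further Pol I, 40S, 60S, exosome and 5S genes in the table, 102 were tested, and 6, POLR1F, POLR1G, POLR1H, UTP25, NOP53 and MTREX, were listed at 0 in every library and were not tested. Whether these zeros come from how the table names or counts these genes is not known, so they say nothing of their expression. Among the 102, 19 rose and 9 fell (27.5%, against 40.8% of all genes), with a median log2 fold change of 0.08. Higher were DCAF13, a processome gene (88.6 ± 12.5 to 179 ± 1.78 CPM), the exosome genes EXOSC5 (54.5 ± 19.0 to 196 ± 3.26 CPM) and EXOSC1 (39.3 ± 8.11 to 76.6 ± 3.02 CPM), and RSL24D1, a 60S factor (81.8 ± 20.8 to 206 ± 17.4 CPM). Lower were the helicase gene DDX54 (515 ± 73.6 to 249 ± 5.26 CPM), RRP1B (254 ± 12.4 to 164 ± 4.47 CPM), IMP4 (234 ± 20.5 to 162 ± 5.06 CPM) and UTP3 (109 ± 24.0 to 66.1 ± 5.38 CPM), all with n = 3 per group and adjusted p of at most 0.0101 in edgeR. When DMSO replicate 2 was left out, 36 of these genes were higher and 23 lower (26.4% and 30.3% of all genes). Without DMSO replicate 1 the counts were 15 and 5 (15.2% and 17.4%), and without DMSO replicate 3 they were 24 and 9 (21.9% and 22%). Without treated replicate 1, 2 or 3, 9, 9 and 11 were higher (12.8%, 12.7% and 12.8%) and 3, 4 and 4 lower (13.7%, 13.5% and 14.1%).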

How the data were processed

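The deposited table gives unnormalized read counts of each gene, and a second deposited table gives TPM. Per the submitters' processing notes, the tools were STAR 2.7.10, StringTie 2.2.1, fastp 0.23.2 and featureCounts 2.0.1 with GRCh38, in roles not stated. What annotation was counted, whether strand was used and what became of multi-mapping reads is not given in the sources used here, so overlapping genes and near-identical copies cannot be resolved. A repeated symbol was dropped in 61 of 65807 rows. Counts were fitted over the whole table in R 4.3.3 with edgeR 4.0.16 (filterByExpr, TMM, quasi-likelihood F test, treatment the only term, two-sided, Benjamini-Hochberg adjustment). Each SE was taken from the fold change and its F statistic. Relative gene length came from counts over TPM, GC content and overlaps from GENCODE v29, positions and start-site windows from RefSeq on GRCh38.p14. For BOP1, whose identifier is of another release, GENCODE was matched by symbol. The test was also tested on simulated data. Alternatives used limma 3.58.1, DESeq2 1.42.0, other scalings and filters, removal of length or GC trends, a replicate block and each library left out. Values per library were planned for up to 12 falls and 8 rises past the threshold, the smallest p of each role, NCL, NPM1, FBL and POLR1A, and for the wider pathway 4 genes in each direction. NOP10, NHP2, NOP56, NOP58, NOP2, BYSL, WDR43 and other uncalled genes with values, and the ratios, were chosen after their values were seen. The genes and lists were chosen with earlier results of these data known.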

Additional observations from a re-analysis of the deposited data

How the results depend on the processing

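Counts of called genes moved more than directions did. Over the libraries left out in turn, 3 to 15 of the 54 genes were higher and 5 to 15 lower, and 9 to 36 of the wider pathway genes were higher and 3 to 23 lower. With limma on log2(TPM + 1) or log2(TPM + 0.1), 0 of the 54 were higher and 5 lower. On each scale 4 wider pathway genes were higher. Of all genes, 6.19% and 6% were called higher on these scales, and 19.3% and 19.5% lower. The median of all genes lay at -0.19 and -0.26 on those scales. With the trends on length and GC removed, chosen after seeing the data, 13 of the 54 and 17 wider pathway genes were lower (25.2% of all genes). With DMSO replicate 2 left out as well, 20 of the 54 were higher and 21 lower (32.5% and 33.7% of all genes), and 47 and 24 wider pathway genes. Other settings stayed within 1.5 times. With the replicate block, 7 of the 54 were higher and 6 lower (20% and 21.1% of all genes), and 25 and 7 wider pathway genes. POLR1B and NOP16 were not called in it (0.0585 and 0.0586 in edgeR). Same-numbered libraries correlated at 0.04, 0.10 and 0.15 in their deviations, each best with its own number. The labels do not say that a number marks a shared day or culture, so the main fit did not take the numbers as pairs. Whether they are pairs is not known. Of 576 values of 32 named genes under alternatives, 481 kept their side, 59 lost and 28 gained a call, and 8 changed sign, all of uncalled genes. These were NOP10 at -0.11 with the length trend removed and -0.0554 with both trends removed, NHP2 at -0.0602 and -0.0108 in the same settings and -0.0893 and -0.0897 on the TPM scales, and NOP56 at -0.12 on both TPM scales. The cause was not tested. Depth was lowest for NOP2, with 37 to 97 counts in a library.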
